A study of Mus musculus with 4 samples.

Results

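The genes described here are the semaphorins, ephrins and Slits, with their receptors, and the netrins with the Unc5 receptors. They were taken by gene name from the probes of 4 mouse expression arrays, as Sema3 to Sema7, Plxn, Efn, Eph, Slit, Robo, Ntn and Unc5 names. This gave 63 genes, carried by 115 probes, of 27745 gene names on the array. They were 20 semaphorins, 9 plexins, 8 ephrins, 14 Eph receptors, 3 Slits, 3 Robos, 2 netrins and 4 Unc5 receptors.

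Each of the 4 conditions was measured on 1 array. The four-factor cells were mouse embryonic fibroblasts that carried transduced Oct3/4, Sox2, Klf4 and c-Myc, the transcription factors used to reprogram fibroblasts towards pluripotency, and they were kept for 72 hours at 21% or at 5% O2 (the labels also call them day 4). The untransduced fibroblasts were kept for 10 days at 21% or at 5% O2. Strain, embryonic age and vector are not stated in the labels. Both arrays of a culture lay on 1 slide with 1 scan, so the effects of transduction, days in culture, slide and scan run cannot be told apart. With bulk RNA, fewer cells of a type and less RNA per cell cannot be told apart either.

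Semaphorins bind plexins, with neuropilins as co-receptors of the secreted class 3 proteins, and plexins act on small GTPases and the actin cytoskeleton. Ephrins and Eph receptor tyrosine kinases signal between touching cells in both directions, while secreted Slits bind Robo receptors and netrins bind Dcc or Unc5 receptors. The proteins are named for steering growing axons, and fibroblasts and other mesenchymal cells use many of them in migration, adhesion and the sorting of cells at tissue borders.

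Values are log2 of a probe's processed signal minus the 75th percentile of its array, so 0 is the level of that percentile. A gene is given by its brightest probe, and the level of a probe is compared only with its own level on another array. Pairs of values are in the order 21% then 5% O2. A gene was counted as higher or lower at a difference of at least 2-fold (1 log2 unit) with the probe well above background on both arrays. These counts have no test, since a condition had 1 array. The extraction software's error model put the error of a single difference at a median of 0.205 or 0.206 log2 units over the measured members in each of the 4 comparisons, at most 0.4. A preset multiplicative term of that model sets most of this error, which speaks for the spot and not for the condition.

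Of the 63 genes, 54 were well above background on all 4 arrays. Epha6, Epha8 and Epha10 were above it on none. Robo4, an endothelial Robo, passed background only on the four-factor array at 21% O2, and Ephb1 and Unc5d in both four-factor cultures alone. Sema4a and Sema4b were not well above background in the fibroblasts at 21% O2, nor was Plxnb3 in the four-factor cells at 5% O2. The lowest signal above background was at -6.85 and -6.90 on the four-factor arrays and at -4.93 and -5.13 on the fibroblast arrays, so dim probes were measured further down in the four-factor cells.

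The arrays held from 57.0% to 68.4% of probes above background. All 15 genes of a fibroblast marker list were above background on every array, with a summed signal of 568 and 520 times the 75th percentile in four-factor cells and of 1199 and 1248 times in fibroblasts. The Pou5f1 probe, for Oct3/4, read -0.59 and -0.20 in four-factor cells and was not well above background in fibroblasts, and the Myc probe stood above its fibroblast level by 2.59 at 21% and 4.17 at 5% O2. Klf4 was lower there by 1.14 and 1.70. Sox2 was lower by 2.82 at 5% O2, and at 21% O2 its four-factor value was not well above background; whether the Klf4 and Sox2 probes lie in the transduced sequence is not stated in the labels.

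Most of the guidance genes had a lower relative signal in four-factor cells than in fibroblasts. At 21% O2, 24 of 55 measured members were at least 2-fold lower, against 16.6% of all genes, and 5 were higher, against 11.8% of all genes. At 5% O2, 27 of 56 were lower, against 20.0% of all genes, and 6 were higher, against 17.1%. In percent, 43.6% and 48.2% of the measured members were lower and 9.09% and 10.7% higher. The median difference over the members was -0.82 at 21% and -0.93 at 5% O2, against -0.02 and -0.02 over all genes, and 43 members lay below 0 at each oxygen level.

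The scaling set part of these counts. Scaling on 7 spike-in probes in place of the 75th percentile moved the median of all genes to 0.43 at 21% and 0.64 at 5% O2. The split of the members then became 6 higher and 16 lower at 21% O2, against 24.5% and 10.3% of all genes. At 5% O2 it became 9 higher and 20 lower, against 36.1% and 10.8%, with member medians of -0.38 and -0.27. This scaling moves all genes of an array alike, so the gap between the members and all genes is the same under both and is no test of it. The differences that came to less than 2-fold with spike-in scaling, in the same direction, were those of Efna2, Efnb2, Ntn1, Sema3b, Sema3d, Sema3g, Sema4g and Sema5a at 21% O2 and of Efnb2, Plxna2, Sema3c, Sema4c, Sema6c, Unc5a and Unc5b at 5% O2. With normexp background correction they were Efna2, Ntn1, Ntn4, Sema3e, Sema3g and Sema4g at 21% O2 and Efna3, Ntn4, Plxna2, Sema4a, Sema6c and Unc5a at 5% O2. The fibroblast marker list moved the same way as the members, with 10 of 15 genes at least 2-fold lower in four-factor cells at 21% O2 and 11 of 15 at 5% O2; its part in the result was not tested.

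**Figure D1:**
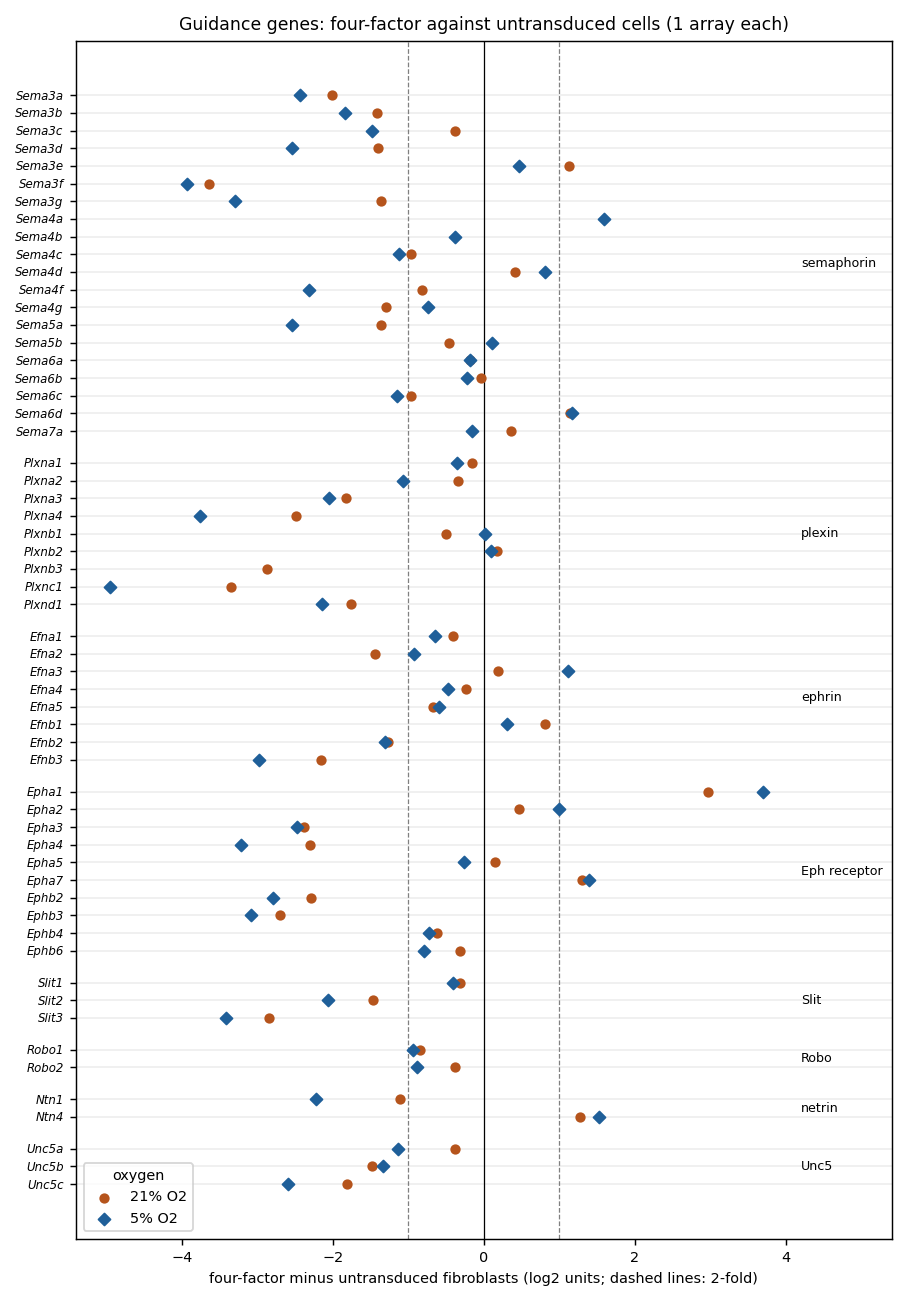
Difference between four-factor cells and untransduced fibroblasts (log2 units, x axis) for each guidance gene measured on both arrays (y axis), with circles for 21% and diamonds for 5% O2 and 1 array per condition. Most points lie left of 0, with Plxnc1 and Sema3f farthest to the left and Epha1 farthest to the right.

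Among the secreted class 3 semaphorins, 5 of 7 were lower in four-factor cells at 21% O2 and 6 of 7 at 5% O2. The shares of all genes were 16.6% and 20.0%. Sema3f, a neuropilin-2 ligand that repels axons and endothelial cells, stood lowest against the fibroblasts. Its probe at chr9:107540558-107540617 (mm8) read -2.20 and -2.59 in four-factor cells and 1.44 and 1.35 in fibroblasts, 12.5-fold and 15.3-fold lower. The second Sema3f probe read -3.93 and -4.40 against 0.71 and 0.52, so both probes placed the four-factor cells far below the fibroblasts.

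Sema3a, the collapsin that acts through neuropilin-1, read -2.40 and -2.79 against -0.38 and -0.35. Both four-factor values lay at least 2-fold below both fibroblast values, as for 12.6% of all genes. Sema3b, a close relative of Sema3f, read -0.70 and -0.53 against 0.72 and 1.32, again with both four-factor values at least 2-fold below both fibroblast values. Sema3d read -2.98 and -2.83 against -1.57 and -0.29, and the fibroblast value at 5% O2 was the highest of the 4. The fibroblasts at 5% O2 also stood highest for Sema3g, which read -4.29 and -4.89 against -2.92 and -1.59. Sema3c, known for its role in outflow tract development, read -0.38 and -0.82 against -0.01 and 0.66, so that only the pair at 5% O2 was 2-fold apart. Sema3e, a direct ligand of plexin D1, was the exception of this class: it read -0.10 and -0.45 in four-factor cells and -1.23 and -0.92 in fibroblasts, 2.19-fold higher at 21% O2.

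The membrane-bound semaphorins were mixed. Sema4a, a class 4 protein also known from immune cells, was higher in four-factor cells, at -3.51 and -2.81. Its fibroblast value at 5% O2 was -4.39, 3.01-fold lower, and at 21% O2 its probe was not well above background, which put the four-factor cells at least 2.68-fold higher. Sema6d, a transmembrane ligand of plexin A1, read -0.14 and 0.39 against -1.29 and -0.78, 2.21-fold and 2.25-fold higher; its direction held in both pairs, but the median over its probes gave differences of 0.10 and 0.79 only.

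Sema5a, whose thrombospondin repeats bind matrix proteoglycans, was lower at 0.64 and 0.06 against 2.01 and 2.61. Sema4c read -1.96 and -1.87 against -0.998 and -0.75, and Sema6c -3.56 and -3.38 against -2.59 and -2.23, each just past 2-fold at 5% O2 and just short of it at 21%. Sema4f read -3.51 and -3.62 against -2.68 and -1.30, so its 2-fold difference came at 5% O2, where the fibroblast value was high. Sema4g was lower at 21% O2 alone, reading -5.42 and -5.01 against -4.12 and -4.27. The semaphorins at less than 2-fold in both pairs on their brightest probe were Sema4b, Sema4d, Sema5b, Sema6a, Sema6b and Sema7a, with Sema4b measured at 5% O2 alone. The probes of Sema5b disagreed: at 21% O2 they were lower in four-factor cells by 0.46, 1.94 and 1.98, and at 5% O2 they differed in direction.

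The plexins are the receptors of the semaphorins. None of the 9 was at least 2-fold higher in four-factor cells, and 5 were lower at 21% and 5 at 5% O2, with 1 more by a bound. Over all genes, 11.8% and 17.1% were higher and 16.6% and 20.0% lower. Plxnc1, the receptor of Sema7a, read -3.93 and -4.67 in four-factor cells and -0.59 and 0.28 in fibroblasts, 10.2-fold and 30.9-fold lower (probe at chr10:94220933-94220992, mm8). Plxna4, which passes on class 3 and class 6 signals, read -3.66 and -4.21 against -1.17 and -0.46, 5.61-fold and 13.5-fold lower. In both genes the fibroblasts at 5% O2 stood highest and the four-factor cells at 5% O2 lowest.

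Plxnb3, a receptor of Sema5a, read -6.16 in four-factor cells at 21% O2 and -3.28 and -1.09 in fibroblasts, 7.34-fold lower at 21% O2 (probe at chrX:70024953-70025012, mm8). The four-factor array at 5% O2 did not show it well above background, which put them at least 56.0-fold lower. Plxna3 read -1.33 and -1.18 against 0.50 and 0.87, and Plxnd1, the Sema3e receptor, -2.73 and -2.98 against -0.97 and -0.84. Each had both four-factor values at least 2-fold below both fibroblast values, as did 12.6% of all genes. Plxna2 read 0.56 and -0.21 against 0.90 and 0.87 and was 2-fold lower at 5% O2 alone. Plxna1, Plxnb1 and Plxnb2, the last a widely expressed plexin, were under 2-fold in both pairs. The brightest Plxnb2 probe spanned only 3.80 to 3.97 over the 4 arrays. The probes of Plxnb2 differed in direction at both oxygen levels, its second probe differing by -0.67 and -0.27, and those of Plxnb1 at 5% O2.

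Of the 8 ephrins, 3 were lower at 21% O2 and 2 at 5% O2, against 16.6% and 20.0% of all genes. The count at 5% O2 is near that share. The 2 ephrins that were lower at both levels were transmembrane B ephrins. Efnb3 read -3.77 and -3.85 in four-factor cells and -1.62 and -0.87 in fibroblasts, 4.46-fold and 7.89-fold lower. Efnb2, the arterial ephrin and a ligand of Ephb4, read 1.78 and 1.62 against 3.05 and 2.93. Each had both four-factor values at least 2-fold below both fibroblast values, as did 12.6% of all genes, while Efnb1 was under 2-fold at both oxygen levels. Among the lipid-anchored A ephrins, Efna2 read -5.21 and -4.32 against -3.77 and -3.40 and was lower at 21% O2 alone. Efna3 was the 1 ephrin counted as higher, at 5% O2: it read -0.03 and -0.06 against -0.21 and -1.17, so the gap came from the low fibroblast value at 5% O2. Efna1, Efna4 and Efna5 were under 2-fold in both pairs.

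The Eph receptors split in direction, with 2 of 10 measured members higher and 4 lower at each oxygen level. Over all genes, 11.8% and 17.1% were higher and 16.6% and 20.0% lower, so the count higher is near that background. Epha1, a receptor best known from epithelia, stood farthest above the fibroblasts among members measured on all arrays: it read 3.86 and 4.05 in four-factor cells and 0.89 and 0.35 in fibroblasts, 7.85-fold and 13.0-fold higher (probe at chr6:42288191-42288250, mm8). Epha7 read 1.97 and 1.76 against 0.67 and 0.36, 2.46-fold and 2.63-fold higher. Each had both four-factor values at least 2-fold above both fibroblast values, as did 9.52% of all genes. An epithelial marker list of 10 genes was mixed, with 6 and 7 genes above background in four-factor cells and 4 and 7 in fibroblasts. Its summed signals were 10.9 and 16.9 against 2.01 and 3.07 times the 75th percentile, and of the genes measured on both arrays 2 of 4 at 21% and 4 of 6 at 5% O2 were at least 2-fold higher in four-factor cells, Krt8 and Krt19 at both. Krt18 and Cldn7 were lower by less than 2-fold at both oxygen levels. Cldn4 passed background only on the fibroblast array at 5% O2, at -3.18. It was the 1 gene of the list lower in four-factor cells by a bound at 5% O2. At 21% O2, 2 genes of the list were higher by a bound. Ovol1 and Grhl2 were above background on no array, and the part of this list was not tested.

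The 4 lower Eph receptors were the same at both oxygen levels. Ephb3 read 1.02 and 0.77 against 3.72 and 3.85, 6.49-fold and 8.45-fold lower, and Ephb2, which with it sorts cells along the gut crypt, read -0.63 and -0.66 against 1.66 and 2.13. Epha4, a receptor that binds A and B ephrins, read -0.55 and -1.38 against 1.75 and 1.84, 4.92-fold and 9.31-fold lower. Epha3 read -3.36 and -3.35 against -0.98 and -0.87, so all 4 genes had both four-factor values below both fibroblast values by more than 2-fold. Over all genes, 12.6% were separated in this way by at least 2-fold. Ephb1 read -6.02 and -6.43 in four-factor cells, below the lowest signal that counts as above background on the fibroblast arrays, so no fold is given. Epha2, Epha5, Ephb4 and Ephb6 were under 2-fold in both pairs.

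Of the Slits, secreted repellents that fibroblasts and other stromal cells also make, 2 of 3 were lower in four-factor cells at each oxygen level. The shares of all genes were 16.6% at 21% and 20.0% at 5% O2. Slit3 read 2.95 and 2.61 in four-factor cells and 5.79 and 6.02 in fibroblasts, 7.17-fold and 10.6-fold lower (probe at chr11:35555291-35555350, mm8). Slit2 read 4.15 and 3.72 against 5.63 and 5.79, 2.78-fold and 4.18-fold lower, and Slit1 was under 2-fold in both pairs. Of their receptors, Robo1 read 0.05 and -0.05 against 0.90 and 0.89, under 2-fold at both oxygen levels. Robo2 read -2.43 and -2.43 against -2.05 and -1.55 on its brightest probe, and its probes disagreed: another read -3.55 and -3.40 against -4.28 and -4.48, higher in four-factor cells, and a further one -3.53 and -3.82 against -2.35 and -1.93, lower.

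The netrins went in opposite directions. Ntn1, the Dcc and Unc5 ligand, read -4.24 and -3.90 in four-factor cells and -3.13 and -1.68 in fibroblasts, 2.16-fold and 4.68-fold lower. Ntn4, a netrin that binds laminins of basement membranes, read -3.25 and -3.48 against -4.52 and -5.01, 2.41-fold and 2.89-fold higher. With normexp background correction the Ntn4 differences were 0.41 and 0.54, under 2-fold. Of the Unc5 receptors, Unc5c read -1.84 and -2.88 against -0.02 and -0.29, 3.52-fold and 6.05-fold lower. Unc5b, which endothelial cells also express, read 1.11 and 0.46 against 2.59 and 1.80, lower at both oxygen levels, and Unc5a read -4.23 and -5.15 against -3.85 and -4.01, lower at 5% O2 alone. Unc5d read -4.35 and -3.99 in four-factor cells and was not well above background in fibroblasts, so it was at least 1.49-fold higher at 21% and at least 2.20-fold higher at 5% O2.

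Over both oxygen levels together, 19 of the 54 genes measured on all arrays had both four-factor values at least 2-fold below both fibroblast values, against 12.6% of all genes. These were 6 semaphorins (Sema3a, Sema3b, Sema3d, Sema3f, Sema3g and Sema5a), 4 plexins (Plxna3, Plxna4, Plxnc1 and Plxnd1), both Efnb2 and Efnb3, 4 Eph receptors (Epha3, Epha4, Ephb2 and Ephb3), Slit2, Slit3 and Unc5c. The 3 genes with the opposite separation were Epha1, Epha7 and Ntn4, against 9.52% of all genes. The additive limma model, a culture term plus an oxygen term with 1 residual degree of freedom, called 30 of 59 fitted members lower in four-factor cells at an adjusted p under 0.05, against 22.7% of all genes. It called 7 higher, against 27.2%, among them Ephb1 and Unc5d, which entered the fit only through the four-factor arrays on which they were above background. With spike-in scaling it called 14 higher, against 49.8% of all genes, and 23 lower, against 13.7%. The model takes its error from how far the oxygen effect of a gene departs between cultures, so it holds no replicate of a culture.

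In that model Sema3f was lower by an estimate of -3.79 (SE 0.18, adjusted p = 0.00313), Ephb3 by -2.89 (SE 0.19, adjusted p = 0.00406) and Slit3 by -3.13 (SE 0.22, adjusted p = 0.00428). Epha1 was higher by 3.34 (SE 0.25, adjusted p = 0.00459). The wide spread of Plxnb3 over oxygen gave it a larger error, at -4.42 (SE 0.81, adjusted p = 0.0197), and Plxnc1 stood at -4.15 (SE 0.44, adjusted p = 0.00765). Beyond Epha1, the members called higher that did not enter in that way were Epha7, Ntn4, Sema4a and Sema6d; the values of Sema4a and Plxnb3 include an array on which they were not well above background. Efna5, Ephb4 and Robo1 were called lower at estimates of -0.64, -0.67 and -0.89, under 2-fold. Efna5 read 2.32 and 2.35 against 2.996 and 2.94, and Ephb4 -0.12 and 0.16 against 0.50 and 0.89.

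**Figure D2:**
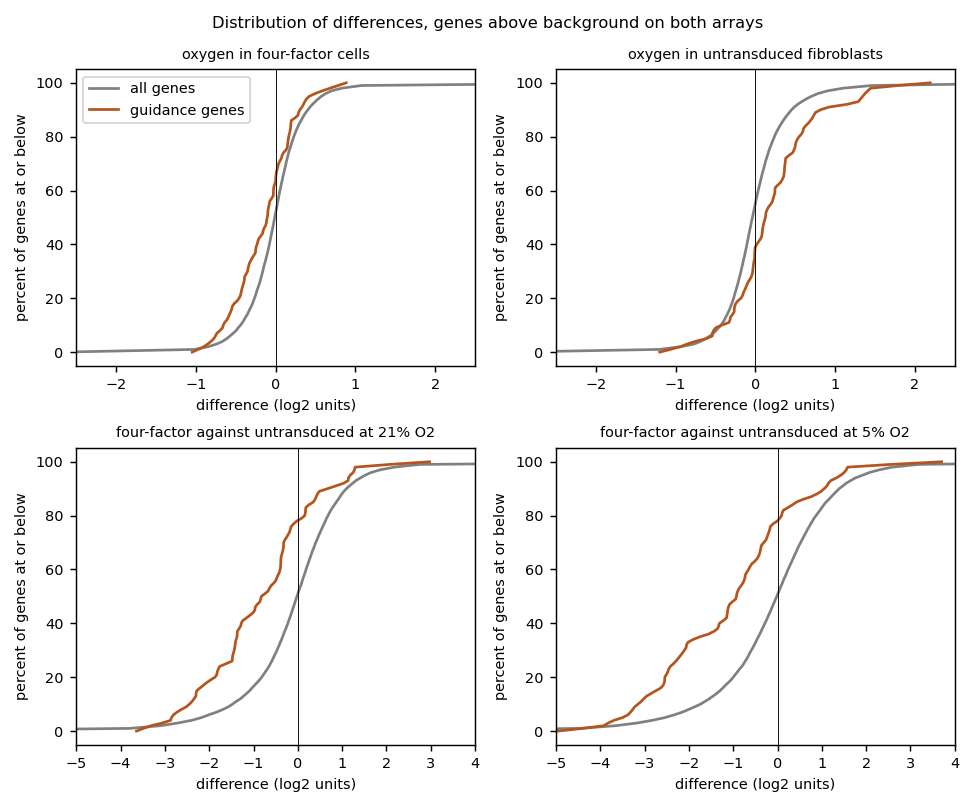
Percent of genes (y axis) at or below each difference (log2 units, x axis) for guidance genes and for all genes above background on both arrays, in the 4 comparisons. In the lower panels the guidance genes lie left of all genes (medians of -0.82 and -0.93 against -0.02 and -0.02), and in the upper panels the medians are -0.11 against -0.01 in four-factor cells and 0.13 against -0.04 in fibroblasts, where the 75th percentile of the guidance genes is 0.48 against 0.17.

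Few of these genes were 2-fold apart between the oxygen levels. In fibroblasts, 5 of 55 measured members (9.09%) were at least 2-fold higher at 5% than at 21% O2, against 2.54% of all genes, and 1 (1.82%) was lower, against 1.72%. In four-factor cells, 0 of 58 were higher, against 1.25% of all genes, and 1 (1.72%) was lower, against 1.07%. The median difference over the members was 0.13 in fibroblasts and -0.11 in four-factor cells, against -0.04 and -0.01 over all genes. With spike-in scaling, which moves all genes of an array alike, these member medians were 0.04 and 0.01, against -0.12 and 0.11 over all genes. The sign of the members' median in four-factor cells thus depends on the scaling, and its distance from the median of all genes does not.

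The 5 members higher at 5% O2 in fibroblasts were 3 semaphorins, a plexin and a netrin. Plxnb3 went from -3.28 at 21% to -1.09 at 5% O2, 4.57-fold higher, with a spot error of the difference of 0.23 log2 units. Ntn1 went from -3.13 to -1.68 (2.73-fold), Sema4f from -2.68 to -1.30 (2.61-fold), Sema3g from -2.92 to -1.59 (2.51-fold) and Sema3d from -1.57 to -0.29 (2.43-fold). For each of the 5 the fibroblasts at 5% O2 stood highest of the 4 arrays. In four-factor cells the same genes differed by less than 2-fold: Ntn1 by 0.34, Sema3d by 0.14, Sema4f by -0.11 and Sema3g by -0.60, while Plxnb3 was not well above background at 5% O2. With normexp background correction Ntn1 and Sema3g came to 0.99 and 0.96 in fibroblasts, just under 2-fold.

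Marker genes of some other cell types were also higher in the fibroblasts at 5% O2. In a macrophage list, 13 of the 14 genes measured at both oxygen levels were higher by 2-fold or more, with a median of 1.42, and the summed signal was 2.77 times the 75th percentile at 21% and 7.29 times at 5% O2 (0.931 and 0.764 in four-factor cells). In a neural and glial list, 6 of 9 were at least 2-fold higher, with a median of 1.21, and the summed signal was 5.20 and 11.2 (12.6 and 14.6 in four-factor cells). The Schwann and glial genes Sox10 and Erbb3 were higher by 1.85 and 1.72, while Gfap was above background on no array. The neuronal genes Tubb3, Dcx and Nefl of the same list differed by -0.38, 0.21 and 0.58. In an endothelial list, 1 of 5 measured genes was at least 2-fold higher and 1 lower, with a median of -0.14. In the epithelial list, 0 of 4 measured genes were at least 2-fold higher, but all 4 lay above 0, with a median of 0.82. There 2 more genes were at least 2-fold higher by a bound, and the summed signal was 2.01 and 3.07 (10.9 and 16.9 in four-factor cells). The part of these cells in the oxygen differences of the guidance genes was not tested.

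**Figure D3:**
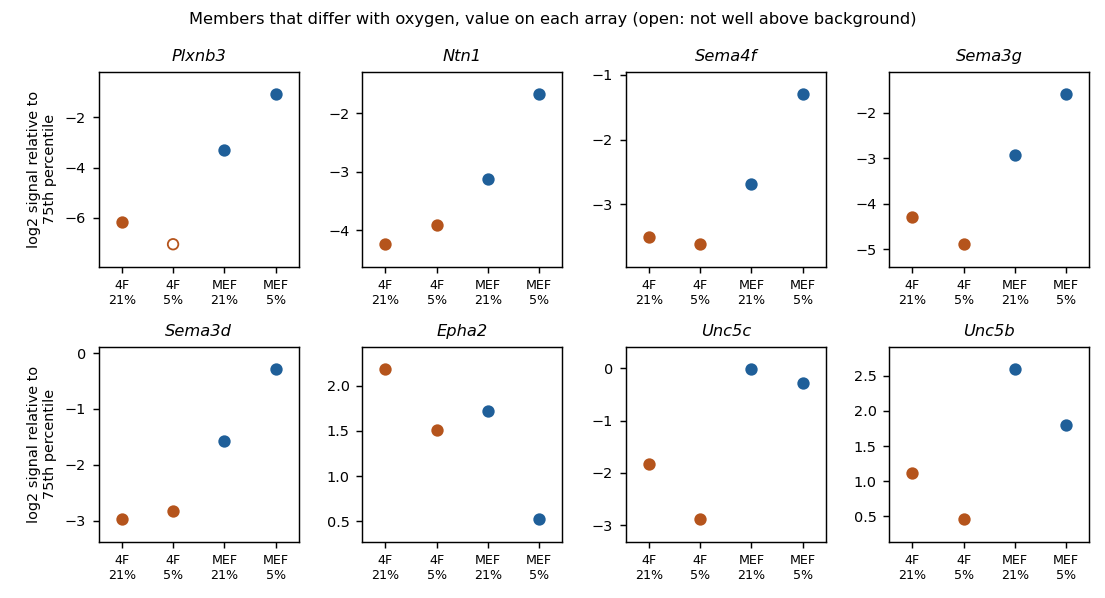
Value on each of the 4 arrays (log2 units from the 75th percentile of that array, y axis) of 8 guidance genes in four-factor cells (4F) and untransduced fibroblasts (MEF) at 21% and 5% O2, 1 point per array, with an open point where the probe was not well above background. The first 5 genes stand highest in fibroblasts at 5% O2, while Epha2 and Unc5b are lower at 5% than at 21% O2 in both cultures.

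Epha2, the ephrin-A1 receptor of epithelial and tumour cells, was the member that was lower at 5% O2 in fibroblasts. It went from 1.72 to 0.52 there, 2.30-fold lower, and from 2.18 to 1.52 in four-factor cells, 1.59-fold lower (probe at chr4:140601300-140601359, mm8). The fibroblasts at 5% O2 stood lowest of the 4 arrays. Unc5b, a netrin receptor, was lower at 5% O2 in both cultures by less than 2-fold, from 2.59 to 1.80 in fibroblasts and from 1.11 to 0.46 in four-factor cells. Unc5c was the 1 member at least 2-fold lower in four-factor cells, from -1.84 to -2.88, against -0.02 to -0.29 in fibroblasts. It fell short of 2-fold with normexp background correction (-0.76), with spike-in scaling (-0.93) and as the median of its probes (-0.57). Sema4a and Sema6d, both higher in four-factor cells, and Efna2 had their higher value at 5% O2 in both cultures, the fibroblast value of Sema4a at 21% O2 being not well above background.

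The oxygen term of the limma model called none of the 59 fitted members at an adjusted p under 0.05, and 0.0% of all genes in either direction. The smallest adjusted p of a member was 0.596. At an unadjusted p under 0.05 it had 3 members higher at 5% O2 (Sema4a by 0.85, SE 0.18; Sema6d by 0.52, SE 0.16; Efna2 by 0.62, SE 0.21), against 3.52% of all genes, and 2 lower (Epha2 by -0.93, SE 0.21; Unc5b by -0.72, SE 0.16), against 4.1%. With normexp background correction Epha2 was called lower, at an adjusted p of 0.0261, while quantile normalization called no member.

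Promoters are shown for Epha2 and Unc5b, which were lower at 5% O2 in both cultures, and for Plxnb3 and Sema3g, which were higher in fibroblasts, because HIF factors, the transcription factors stabilised at low oxygen, bind the core letters ACGTG and GCGTG. The sequences are from RefSeq (GRCm38.p6) and run from 250 bases before to 50 after the gene start, on the gene's strand, at chr4:141300971-141301270 (+) for Epha2, chr10:60831532-60831831 (-) for Unc5b, chrX:73756853-73757152 (+) for Plxnb3 and chr14:31217623-31217922 (+) for Sema3g. Capitals mark ACGTG or GCGTG on either strand.
Epha2: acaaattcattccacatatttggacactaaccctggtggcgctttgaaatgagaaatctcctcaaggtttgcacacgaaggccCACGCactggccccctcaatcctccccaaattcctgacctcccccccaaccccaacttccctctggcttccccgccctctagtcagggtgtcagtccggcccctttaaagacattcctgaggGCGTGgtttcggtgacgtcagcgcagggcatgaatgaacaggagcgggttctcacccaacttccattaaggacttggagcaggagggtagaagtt
Unc5b: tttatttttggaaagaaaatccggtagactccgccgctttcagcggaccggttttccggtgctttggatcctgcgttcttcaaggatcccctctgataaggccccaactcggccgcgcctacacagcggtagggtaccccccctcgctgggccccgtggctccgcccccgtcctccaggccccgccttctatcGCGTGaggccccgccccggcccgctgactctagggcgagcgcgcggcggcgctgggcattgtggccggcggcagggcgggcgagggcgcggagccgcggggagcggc
Plxnb3: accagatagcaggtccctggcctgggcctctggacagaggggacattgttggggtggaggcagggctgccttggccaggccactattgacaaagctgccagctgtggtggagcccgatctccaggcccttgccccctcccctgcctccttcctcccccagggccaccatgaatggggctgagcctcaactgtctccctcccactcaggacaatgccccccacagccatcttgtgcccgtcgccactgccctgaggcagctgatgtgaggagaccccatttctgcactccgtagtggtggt
Sema3g: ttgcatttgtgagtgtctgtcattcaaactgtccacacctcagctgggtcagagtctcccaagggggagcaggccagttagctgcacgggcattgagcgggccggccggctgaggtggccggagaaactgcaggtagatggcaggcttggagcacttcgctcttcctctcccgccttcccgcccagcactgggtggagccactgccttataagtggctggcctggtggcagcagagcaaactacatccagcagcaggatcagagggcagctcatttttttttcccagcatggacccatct
Epha2 had 2 such matches, with first bases at -167 and -45 from the start, Unc5b had 1 at -57, and Plxnb3 and Sema3g had 0. Promoters of Sema3d and Sema4f held none either. Those of Unc5a and Unc5c, which were also lower at 5% O2 in both cultures, held 0 as well. Each promoter of Efna3, with differences of -0.02 in four-factor cells and -0.96 in fibroblasts, held 3. Sema6d, which was higher at 5% O2 in both cultures, had 2 matches in 1 promoter and 0 in another. Efna2 and Sema4a, with their higher value at 5% O2 in both cultures, had 0. No promoter was matched for Ntn1. These are chosen members, and whether matches go with the direction of the oxygen difference was not tested. RefSeq promoters were matched to 54 of the 63 members by symbol, 70 promoters in all. Promoters on 1 chromosome were left out for the members, while no such rule was put on the 32851 promoters they are set against. ACGTG stood in 13 of them (18.6%), against 19.6% of 32851 mouse promoters of that length, and GCGTG in 26 (37.1%), against 32.4%. At least 1 of these cores stood in 33 (47.1%), against 43.8%. The E-box CACGTG, which overlaps ACGTG and is bound by Myc, stood in 5 (7.14%), against 7.15%, and the octamer ATGCAAAT, bound by Oct3/4, in 0, against 1.74%. A match describes the letters only.

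The oxygen difference was lower in four-factor cells than in fibroblasts for 40 of the 54 members measured on all arrays (74.1%), against 47.6% of all genes. It was lower by at least 1 log2 unit for 8 members (14.8%), against 2.91% of all genes, and higher by that much for 0 of 54, against 1.74%. The median of this difference of differences was -0.27 over the members and 0.02 over all genes. It has no test, since each of its 4 values is a single array. These counts rest on the brightest probe of a gene. Of the 27 members with at least 2 measured probes in four-factor cells, the probes of 8 differed in direction with oxygen. In fibroblasts those of 7 of 24 did, and in neither culture was a probe of these past 2-fold.

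**Figure D4:**
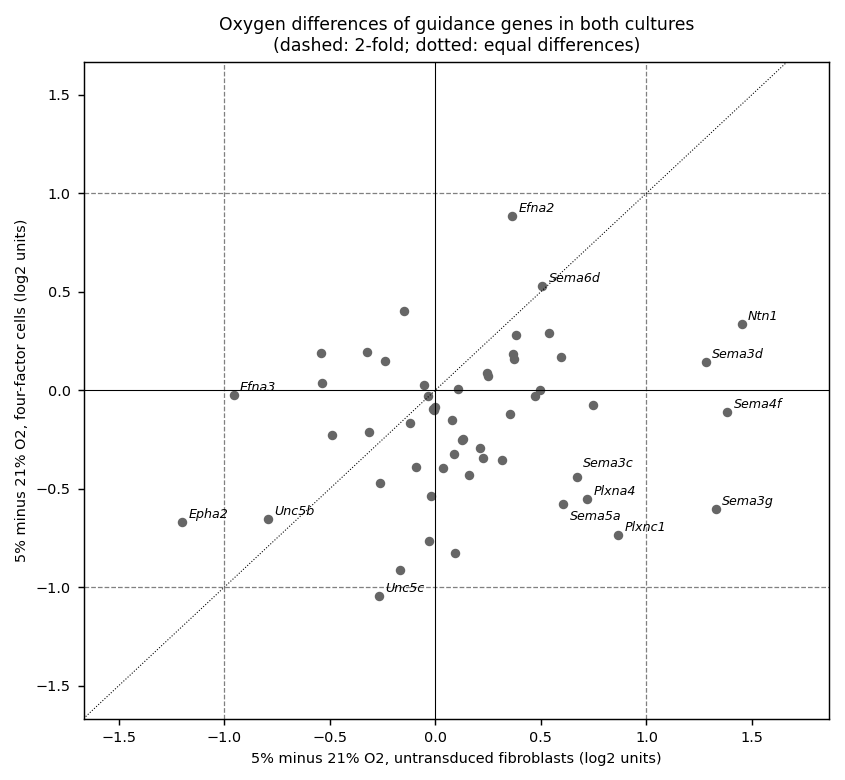
Difference between 5% and 21% O2 in four-factor cells (y axis) against that in untransduced fibroblasts (x axis), both in log2 units, with 1 point per guidance gene measured on all 4 arrays. Of the 54 genes, 40 lie below the dotted line of equal differences, and Ntn1, Sema3d, Sema3g and Sema4f lie right of the 2-fold line for fibroblasts.

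Other genes of these pathways were counted in 3 lists of partners. Among 20 partners of semaphorins and plexins, 9 of 18 measured were at least 2-fold lower in four-factor cells at 21% O2, against 16.6% of all genes, and 6 of 18 at 5% O2, against 20.0%, with 1 higher at each. The co-receptor Nrp1 was lower by 2.56 and 2.90, and Dpysl4, of the collapsin response mediators, by 1.80 and 2.20. The hepatocyte growth factor receptor Met, which joins B plexins, was higher by 2.43 and 2.005. With oxygen, Rnd1, a small GTPase that binds plexins, read 0.68 at 21% and -2.005 at 5% O2 in four-factor cells and 0.12 and -1.53 in fibroblasts, lower by more than 2-fold at 5% O2 in both, and Mical2, an actin oxidase, was lower by 1.30 in fibroblasts.

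Of 25 partners of netrins and Slits, 4 of 17 measured were lower in four-factor cells at 21% O2 and 5 of 18 at 5% O2, with 2 more by a bound at 5% O2 and 0 higher. These counts stand against 16.6% and 20.0% of all genes, and with so few genes they are near that background. Rgma, a ligand of neogenin, was lower by 2.07 and 2.30, Flrt3 by 1.97 and 2.17, Srgap3, which acts below Robo receptors, by 1.66 and 2.18, and Ntng1 by 1.33 and 1.39. Neo1, for neogenin, was 2-fold lower at 5% O2 alone, by 1.58. In this list 0 genes were 2-fold apart with oxygen in either culture.

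Of 15 partners of ephrins and Eph receptors, 2 were higher and 2 lower in four-factor cells at each oxygen level, with 2 more higher by a bound at 5% O2. Over 14 and 13 measured genes these counts are near the shares of all genes, 11.8% higher and 16.6% lower at 21% O2. Ngef, the exchange factor ephexin that binds EphA receptors, was higher by 3.58 at 21% O2, and Vav2, an exchange factor for Rac, was higher by 1.62 at 21% and 1.28 at 5% O2. The phosphatase Ptpn13 was lower by 1.80 and 2.47 and Arhgap29 by 1.97 and 1.54. In four-factor cells Inppl1, the inositol phosphatase SHIP2, which binds Epha2, was higher at 5% than at 21% O2 by 1.75, which put it 2.74 above the fibroblasts at 5% O2, and Grb7, an adaptor of Eph receptors, by 1.13, while 0 of 13 genes were 2-fold apart with oxygen in fibroblasts.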

How the data were processed

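Gene expression was measured with 4 Cy3 arrays of Agilent design 014868, and signals came from Feature Extraction 9.5.3.1, per the file headers. Its processed signal, the deposited intensity used here, was background-subtracted and detrended within the array, per the file headers, with its error from the same software, and positions are those of mm8. The deposited value table holds log2 values of unstated software; set against the scanner intensity they lay within 0.001 of log2 processed signal minus the 75th percentile for 99.8% to 99.9% of probes, with column medians of -3.86, -3.87, -3.71 and -3.69.

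Control spots and outlier spots (65, 78, 112 and 115) were left out, replicate spots averaged (SD of 0.0646 to 0.108 log2 units) and the array's 75th percentile over 41174 probes subtracted. No spot of a member was an outlier or saturated. Where 1 array was not well above background, the fold is a bound, the brighter value against either the dim probe's signal or the lowest signal above background on its array, whichever was higher. The precision is limited by 1 array per condition. limma 3.58.1 (R 4.3.3) was run on 18359 genes above background on at least 2 arrays, with Benjamini-Hochberg adjustment, and was tested on simulated data. A member was named with its 4 values if it was 2-fold apart in a comparison, also by a bound, or called by limma; partners were named by size, at most 4 per list and comparison. The members, lists and markers were chosen with earlier results of these data known. Alternatives were normexp background correction (offset 50), quantile normalization, spike-in scaling, the deposited table, another set of probes for the percentile, no filter on dim probes, another array minimum for limma and the median of a gene's probes.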

Additional observations from a re-analysis of the deposited data

Results flagged for a closer look

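For 6 members the oxygen difference (5% minus 21% O2) had opposite signs in the cultures and differed by more than 1 log2 unit between them, in each case lower in four-factor cells. Given as the four-factor difference minus the fibroblast difference, these were Sema3g at -1.93 (-0.60 and 1.33), Plxnc1 at -1.60 (-0.74 and 0.87), Sema4f at -1.50 (-0.11 and 1.38), Plxna4 at -1.27 (-0.55 and 0.72), Sema5a at -1.18 (-0.58 and 0.61) and Sema3c at -1.11 (-0.44 and 0.67). The difference between cultures was not tested, since each value is a single array. They are 4 semaphorins and 2 plexins, 11.1% of the 54 members measured on all arrays, against 521 of 14980 genes (3.48%). Of those 521 genes, 344 (2.3% of all genes) were opposed in the same direction as the 6 members. The four-factor difference of Sema4f was 0.01 with normexp background correction and 0.01 with spike-in scaling, so its sign there is not settled. The other 5 kept opposite signs under the 6 alternatives tried, but not always a gap of 1 log2 unit. The gap was -0.75 for Plxna4 and -0.99 for Sema3c with normexp background correction, -0.91 for Sema3c and -0.98 for Sema5a with spike-in scaling and -0.83 for Plxna4 with the median of probes. With normexp the four-factor differences were also smaller for Sema3g (-0.10), Plxnc1 (-0.24) and Plxna4 (-0.13).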

How the results depend on the processing

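Leaving out an array was not run, since the remaining 3 arrays leave the limma model no residual degree of freedom. In four-factor cells the count higher at 5% O2 was 1 with spike-in scaling, and the count lower was 0 with normexp background correction, with spike-in scaling and with the median of probes. In fibroblasts the count higher at 5% O2 was 3 with normexp background correction, and the count lower was 2 with spike-in scaling. Between cultures at 21% O2 the count higher was 3 with normexp background correction and 8 with no filter on dim probes. With spike-in scaling, 5 members had both four-factor values 2-fold above both fibroblast values, against 21.6% of all genes, and limma called 14 higher in four-factor cells, against 49.8%. The limma oxygen term called 1 member lower with normexp background correction. Of 69 differences of named members, 15 went under 2-fold with normexp background correction and 16 with spike-in scaling. The count was 6 with the median of probes, 2 with quantile normalization and 0 with the other 3 alternatives run on them. In all of these, 0 changed sign. Leaving out the filter keeps these values as they are, and the deposited table holds nearly the same values. Neither of them could therefore check the differences. The cause of these shifts was not tested. The values of Plxnb3, Unc5d, Ephb1, Sema4a, Sema4b and Robo4 include arrays on which they were not well above background.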
